A study of Mus musculus with 9 samples.

Results

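The mTOR pathway genes described here are *Mtor*, *Rptor*, *Rictor*, *Deptor*, *Tsc1*, *Tsc2*, *Rheb*, *Akt1*, *Eif4ebp1* and *Rps6kb1*, chosen by matching the Ensembl identifiers of the expression table to these symbols. All 10 were found among the 15464 genes of the table, and all 10 passed the filter on low values that left 14239 genes for testing. The study sequenced striatal RNA of *Shank3B* mice, in which a germline deletion removes an internal block of *Shank3* exons. *Shank3* encodes a scaffold of excitatory synapses, and the comparisons asked how the striatal transcriptome varied with the number of intact copies of the gene. There were 3 WT mice with 2 intact alleles, 3 HET mice (Shank3 heterozygous) with 1 and 3 KO mice (Shank3 knockout) with 0, and each library came from the striatum of 1 mouse. All mice were males of the C57BL/6J background aged 10 to 12 weeks. The deletion is present in every cell from conception, so that adult levels follow a lifelong loss.

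mTOR is a serine/threonine kinase that joins signals from growth factors, amino acids, energy and stress to protein synthesis and autophagy. It works in a pair of complexes: mTORC1, built on Raptor, drives translation and restrains autophagy, and mTORC2, built on Rictor, phosphorylates Akt and related kinases. In neurons the pathway is known for controlling local protein synthesis at synapses and cell size, and loss of its inhibitors TSC1 or TSC2 causes tuberous sclerosis. Its activity is set largely by phosphorylation, which RNA levels do not measure.

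The deposited values are counts per gene divided by a size factor for each library, called normalized counts here. Their sums lay between 30830020 and 33790296 per library, and because the reads behind them are not known from the table, no interval for counting error is given. HET replicate 3 and KO replicate 3 stood apart. On the first principal component, which held 33.6% of the variance, they scored 33.8 and 34.2, while the other 7 libraries lay between -17.0 and 1.36. Their share of normalized counts from 13 mitochondrial genes was 6.02% and 6.64%, against 8.56% to 9.72% in the others. Genes in the fifth with the highest GC content were shifted up in them by a median of 0.08 (log2). In the others this median ran from -0.0693 to 0.0337, so that downward shifts of nearly that size occurred elsewhere. The log2FC of named genes and lists are therefore also given without HET replicate 3 and KO replicate 3. All 12 markers of medium spiny neurons, the main neurons of the striatum, were above 0 in every library. Their summed counts ranged from 65195 to 126225 in WT, 91406 to 111393 in HET and 56859 to 96050 in KO mice, lowest in KO replicate 3. The sum of 10 markers of cortical excitatory neurons was highest in KO replicate 3, at 62963. The part of such differences between the tissue samples in the values of the members was not tested. *Shank3* itself read 7209, 8812 and 6043 normalized counts in WT, 7575, 7098 and 8050 in HET, and 10240, 10800 and 10580 in KO mice. The KO values were above all WT values (log2FC 0.54 ± 0.13 SE, unadjusted p = 0.00195, adjusted p = 0.999 in limma with Benjamini-Hochberg adjustment), and the log2FC was 0.53 without HET replicate 3 and KO replicate 3. This sum includes exons outside the deletion, so that it cannot check the genotype labels.

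In WT striatum, *Akt1* stood highest of the 10 genes and *Eif4ebp1* lowest when levels were expressed per length, as normalized counts per kilobase (kb) of annotated exons (mean ± SD, n = 3). *Akt1*, which encodes the kinase that links PI3K signalling to the TSC complex, reached 1234 ± 94.5 per kb, at the 93rd percentile of 15457 genes. *Tsc2*, the GTPase-activating subunit of the TSC complex, followed with 488 ± 24.9 per kb. *Mtor* stood at 384 ± 72.9 per kb, and its range over the WT mice overlapped that of the next gene.

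That gene was *Rheb*, the small GTPase that activates mTORC1, with 297 ± 25.6 per kb, and its range in turn overlapped that of *Tsc1*, the stabilizing subunit of the TSC complex, with 271 ± 23.8 per kb. *Rptor*, which encodes the mTORC1 scaffold Raptor, stood at 218 ± 0.947 per kb. *Rps6kb1*, the S6 kinase that mTORC1 phosphorylates, stood at 167 ± 6.84 per kb. *Rictor*, the mTORC2 scaffold, and *Deptor*, an inhibitor found in both complexes, had overlapping ranges with 119 ± 10.2 and 116 ± 7.83 per kb. *Eif4ebp1*, the translational repressor 4E-BP1, stood apart below them with 42.1 ± 13.1 per kb, at the 28.9th percentile.

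With the longest annotated transcript as the length, *Mtor* and *Rheb* exchanged places, as did *Tsc1* and *Rptor*, and the other 6 places held. The level of *Rptor* then moved to 445 per kb, since its longest transcript has 6594 bases and the union of its 12 annotated transcripts 13471.

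The related genes set these levels in context. *Akt2*, a paralog of *Akt1*, stood at 656 ± 16.5 normalized counts per kb in WT mice, below *Akt1* in this order and above the other 9 members. Among the 4E-BPs, *Eif4ebp2* stood at 104 ± 9.56 and *Eif4ebp3* at 98.1 ± 17.1 per kb, both above *Eif4ebp1*. *Rps6kb2*, the other S6 kinase gene, stood at 241 ± 12.5 per kb, above *Rps6kb1*. With the longest annotated transcript as the length, *Rps6kb2* and *Rps6kb1* stood closer, at 271 and 262 per kb. *Rhebl1*, the paralog of *Rheb*, stood at 52.0 ± 7.38 per kb, far below *Rheb*. The shared subunit *Mlst8* stood at 310 ± 17.1 per kb and the mTORC2 subunit *Mapkap1* at 402 ± 19.8 per kb, both with ranges that overlapped that of *Mtor*. *Rps6*, the ribosomal protein that S6 kinases phosphorylate, stood at 3249 ± 144 per kb, a level that is uncertain where its processed pseudogenes share reads with it.

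**Figure D1:**
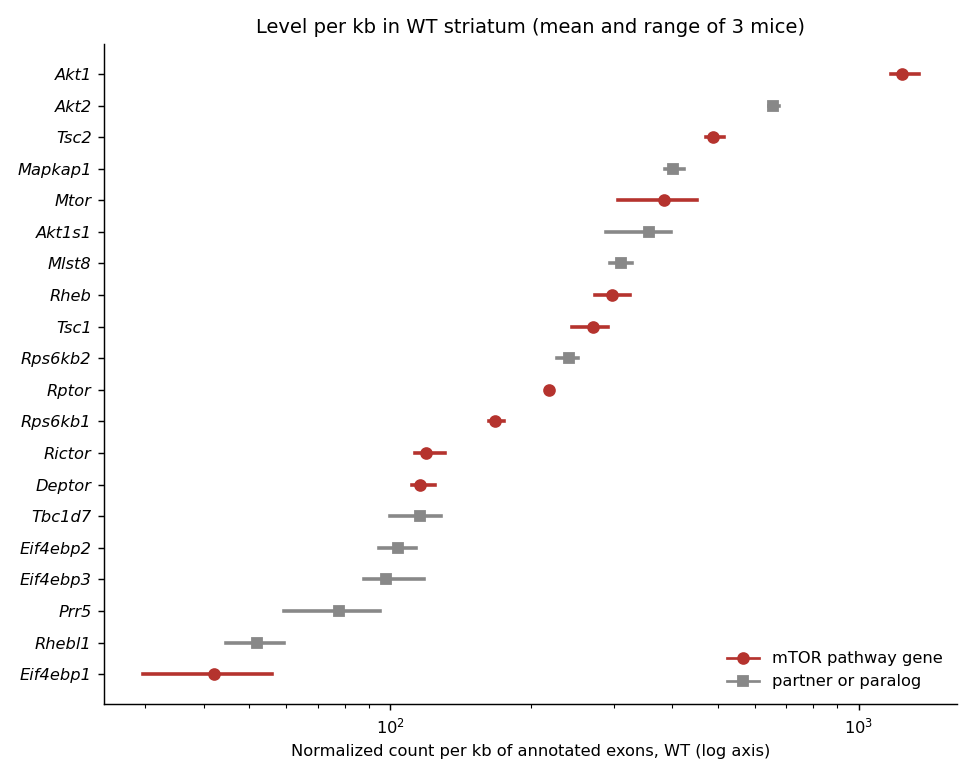
Level in WT striatum of the 10 mTOR pathway genes (red circles) and of 10 partners or paralogs (grey squares), as normalized count per kb of annotated exons on a log axis. Points are means and bars the range of 3 mice. *Akt1* stands highest at 1234 and *Eif4ebp1* lowest at 42.1.

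*Mtor*, *Rptor* and *Tsc2* are the members whose highest values were in both HET replicate 3 and KO replicate 3, while *Rictor*, whose product takes the place of Raptor in mTORC2, lay within the range of the other 7 libraries there. Over all genes tested, 19.2% likewise had both of these libraries above the other 7. The sequence before the start of each of these members is shown as a description. RefSeq (GRCm38.p6) gave promoters for 8 of the 10 members, and the 250 bases before the start are printed from 5′ to 3′ on the gene's strand. Capitals mark matches, on either strand, to the GC box GGGCGG, the CCAAT box, the E-box CACGTG, the ETS core CCGGAAG or the TATA box TATAAA. Of 32851 promoters of this length, the GC box was in 32.7%, CCAAT in 33.8%, the E-box in 6.02%, the ETS core in 6.91% and TATAAA in 12.4%.
Mtor, chr4:148448332-148448581, plus strand: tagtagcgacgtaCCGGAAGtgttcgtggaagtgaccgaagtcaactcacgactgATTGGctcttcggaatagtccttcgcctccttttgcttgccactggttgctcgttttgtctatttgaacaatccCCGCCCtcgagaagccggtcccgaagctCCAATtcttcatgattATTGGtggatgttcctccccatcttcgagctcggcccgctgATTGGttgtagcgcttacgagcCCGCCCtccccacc
Rptor, chr11:119602655-119602904, plus strand: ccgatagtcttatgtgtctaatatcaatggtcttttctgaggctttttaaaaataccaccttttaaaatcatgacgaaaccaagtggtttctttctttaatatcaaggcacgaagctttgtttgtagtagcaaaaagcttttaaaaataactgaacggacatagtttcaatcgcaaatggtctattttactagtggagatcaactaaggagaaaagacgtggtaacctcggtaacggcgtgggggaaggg
Tsc2, chr17:24632628-24632877, minus strand: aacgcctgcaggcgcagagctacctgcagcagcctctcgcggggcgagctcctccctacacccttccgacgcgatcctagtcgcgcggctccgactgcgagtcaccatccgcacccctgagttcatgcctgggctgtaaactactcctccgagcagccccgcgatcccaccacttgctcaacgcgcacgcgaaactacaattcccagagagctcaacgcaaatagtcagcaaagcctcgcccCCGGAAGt
Rictor, chr15:6708131-6708380, plus strand: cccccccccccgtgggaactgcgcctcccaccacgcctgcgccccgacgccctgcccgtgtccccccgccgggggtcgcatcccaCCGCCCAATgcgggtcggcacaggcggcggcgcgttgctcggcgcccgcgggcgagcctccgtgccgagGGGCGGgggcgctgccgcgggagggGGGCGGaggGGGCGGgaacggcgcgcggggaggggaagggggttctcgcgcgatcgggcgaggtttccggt
The *Mtor* window held 4 CCAAT matches, 2 GC boxes and 1 ETS core. In the *Tsc2* window there was 1 ETS core, at its last bases. The *Rptor* window held 0 matches to the 5 motifs, and the *Rictor* window 4 GC boxes, 1 of which overlaps its single CCAAT match. GC content was 54.4% for *Mtor*, 37.6% for *Rptor*, 62.8% for *Tsc2* and 81.2% for *Rictor*, against a median of 52.4% over all promoters. No motif of the 5 was in all 3 of the *Mtor*, *Rptor* and *Tsc2* windows. The part of promoter sequence in the values of these genes was not tested.

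In neither mutant did any of the 10 genes pass a threshold. For HET against WT, 0 of the 10 passed an adjusted p of 0.05 in limma (Benjamini-Hochberg), 0 had an unadjusted p under 0.05, and in 0 did the groups not overlap. Over all 14239 genes tested, the shares were 0%, 1.11% and 4.45%. For KO against WT, the members' counts were again 0, 0 and 0 of 10, with shares of 0%, 0.822% and 4.54% over all genes. KO against HET gave 0, 0 and 0 of 10 beside 0%, 1.31% and 4.45%. In a fit with the replicate number as a block, 318 genes in place of 186 had an unadjusted p under 0.05 for KO against HET, and again 0 members. The slope over intact alleles gave 0 members at either threshold, beside 0% and 0.969% of all genes. All these shares at an unadjusted p under 0.05 were below what that threshold would give without any differences. The fit thus called few genes of any kind, and 0 of 10 members does not show equal levels. HET against WT and KO against WT share the WT libraries, so that their values are not independent of each other. In a bulk tissue, fewer cells of a type and less RNA per cell cannot be told apart in any of these values.

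The signs of the log2FC were mixed, with 3 of 10 positive for HET against WT (49.3% of all genes), 6 of 10 for KO against WT (51.6%) and 8 of 10 for KO against HET (49.6%). The median log2FC of the members was -0.04, 0.02 and 0.05, against -0.0027, 0.0047 and -0.00099 over all genes. Without HET replicate 3 and KO replicate 3, the positive members numbered 1, 3 and 8 of 10, beside 48.4%, 47.1% and 50.1% of all genes, and their medians were -0.10, -0.03 and 0.07. Fitted folds ran from 0.857 (*Eif4ebp1*) to 1.10 (*Mtor*) for HET against WT, from 0.942 (*Deptor*) to 1.16 (*Mtor*) for KO against WT, and from 0.96 (*Deptor*) to 1.20 (*Eif4ebp1*) for KO against HET. The adjusted p of every member was 0.999 in both comparisons with WT and 0.9999 for KO against HET in limma with Benjamini-Hochberg adjustment.

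The 95% intervals of the folds show what the 3 mice per genotype could resolve. They lay within 0.8 to 1.25 for 7 of 10 members in HET against WT, 5 of 10 in KO against WT (*Rictor*, *Tsc1*, *Rheb*, *Akt1* and *Rps6kb1*) and 6 of 10 in KO against HET. For *Mtor* and *Eif4ebp1*, the intervals were wider. Those of *Mtor* reached up to 1.61-fold higher in HET and 1.70-fold higher in KO against WT. Those of *Eif4ebp1* reached down to 0.589 of the WT level in HET, and up to 1.74-fold higher in KO against HET.

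**Figure D2:**
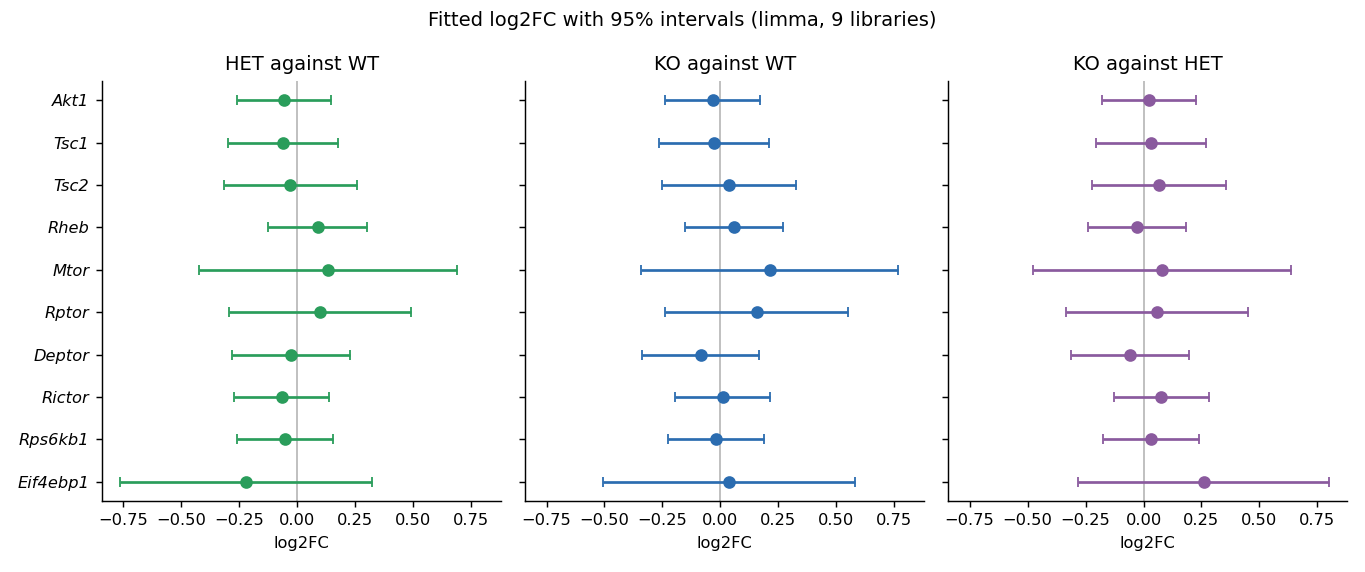
Fitted log2FC of the 10 genes with 95% intervals from limma over 9 libraries, for HET against WT, KO against WT and KO against HET. Every interval crosses 0, and those of *Mtor* and *Eif4ebp1* are the widest.

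*Mtor* (ENSMUSG00000028991) lies at chr4:148448611-148557683 on the plus strand (GRCm38). It read 3103, 4569 and 3958 normalized counts in WT replicates 1 to 3, 3154, 4054 and 5784 in HET, and 3619, 3963 and 6081 in KO mice. HET replicate 3 and KO replicate 3 were the highest of the 9 libraries, the other mutant mice lay within the WT range, and all groups overlapped. The log2FC was 0.13 ± 0.25 (SE) in HET and 0.21 ± 0.25 in KO against WT (exact permutation p = 0.6 and 0.5, two-sided; the smallest value that 3 against 3 allows is 0.1). Without the 2 libraries the log2FC turned negative, to -0.10 in HET and -0.02 in KO.

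*Rptor* (ENSMUSG00000025583, chr11:119602905-119899576, plus strand) had the smallest SD of the members among the WT mice. Its normalized counts were 2921, 2944 and 2943 in WT, 2957, 2559 and 4103 in HET, and 2846, 3019 and 4081 in KO mice. Again HET replicate 3 and KO replicate 3 alone stood above the others, and the groups overlapped. The log2FC was 0.10 ± 0.18 in HET and 0.16 ± 0.18 in KO (exact permutation p = 0.7 in both), and without the 2 libraries it was -0.09 and -0.0023.

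*Rictor* (ENSMUSG00000050310, chr15:6708379-6800401, plus strand) read 2218, 1931 and 1909 normalized counts in WT, 2041, 1841 and 1893 in HET, and 2133, 2005 and 1950 in KO mice. The third replicates of HET and KO lay within the range of the other 7 libraries, and replicate 1 was the highest in each genotype. *Rictor* differed by a log2FC of -0.07 ± 0.09 in HET and 0.01 ± 0.09 in KO (exact permutation p = 0.5 and 0.9), and by -0.06 and 0.04 without the third mutant libraries. The gene shares chromosome 15 with *Shank3*, at a distance of 82.8 megabases.

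The ratio of *Rptor* to *Rictor*, per kb, sets the scaffolds of both complexes side by side within a library, and was chosen after the values were seen. It was 1.66, 1.92 and 1.94 in WT, 1.82, 1.75 and 2.72 in HET, and 1.68, 1.89 and 2.63 in KO mice. Only HET replicate 3 and KO replicate 3 exceeded the WT range. The mean log2 ratio differed by 0.17 in HET and 0.15 in KO against WT (exact permutation p = 0.7 in both), and without the 2 libraries by -0.04 in both.

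*Deptor* (ENSMUSG00000022419, chr15:55112317-55259271, plus strand), also on the chromosome of *Shank3* at 34.4 megabases, read from 875 to 1123 normalized counts over the 9 mice. Its WT values were 987, 989 and 1108, its HET values 1123, 894 and 1020, and its KO values 1038, 875 and 996. The groups overlapped, and HET replicate 3 and KO replicate 3 lay within the range of the others. *Deptor* had the lowest fold of the members in KO, with a log2FC of -0.09 ± 0.11 (exact permutation p = 0.6), and -0.03 ± 0.11 in HET. These were -0.11 and -0.04 without the third mutant libraries.

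Whether replicate numbers pair the HET and KO mice is not known. Between libraries of the same number *Deptor* and *Rictor* each kept the same direction, which was no more frequent among the members than among all genes. *Deptor* was lower in the KO than in the HET mouse of the same number in 3 of 3 pairs, by log2 differences of -0.11, -0.03 and -0.03. *Rictor* was higher in 3 of 3, by 0.06, 0.12 and 0.04. That makes 1 of 10 members lower in every pair, beside 12.6% of all genes, and 1 of 10 higher, beside 12.9%. A limma fit that blocked on replicate gave unadjusted p-values of 0.54 (*Deptor*) and 0.313 (*Rictor*) for KO against HET.

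Of the other subunits, none had an unadjusted p under 0.05 in limma for any genotype. *Mlst8*, which stabilizes the kinase in both complexes, ranged from 1306 to 1485 normalized counts over the 9 mice. *Akt1s1*, the mTORC1 inhibitor PRAS40, ranged from 885 to 1323, with replicate 1 lowest in each genotype. *Mapkap1*, the mTORC2 subunit SIN1, had a log2FC of 0.14 ± 0.10 in HET and 0.08 ± 0.10 in KO (0.09 and 0.07 without the third mutant libraries), with overlapping groups. *Prr5*, the mTORC2 subunit Protor-1, ranged from 113 to 182.

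*Tsc1* (ENSMUSG00000026812, chr2:28641228-28691167, plus strand) read 3444, 3266 and 2892 normalized counts in WT, 3436, 2855 and 2914 in HET, and 3386, 3054 and 2966 in KO mice. Replicate 1 was the highest in each genotype and the groups overlapped throughout. The log2FC was -0.06 ± 0.11 in HET and -0.03 ± 0.11 in KO (exact permutation p = 0.7 and 0.9). Without HET replicate 3 and KO replicate 3 it was -0.03 and 0.01.

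*Tsc2* (ENSMUSG00000002496, chr17:24595816-24632630, minus strand) read 4561, 4967 and 4543 normalized counts in WT, 4210, 4115 and 5583 in HET, and 4399, 4692 and 5385 in KO mice. HET replicate 3 and KO replicate 3 were the highest of all 9 libraries, and the other HET mice were the lowest. Over all 9, the log2FC was -0.03 ± 0.13 in HET and 0.04 ± 0.13 in KO (exact permutation p = 1 and 0.8). Without the 2 libraries it was -0.17 in HET, with both remaining mice below all WT mice (unadjusted p = 0.0512 in limma), and -0.04 in KO.

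The ratio of *Tsc1* to *Tsc2* per kb, also chosen after the values were seen, was 0.614, 0.535 and 0.517 in WT, 0.664, 0.564 and 0.424 in HET, and 0.626, 0.529 and 0.448 in KO mice. The third mutant libraries had the lowest ratios and HET replicate 1 the highest. The mean log2 ratio differed by -0.03 in HET (exact permutation p = 1) and -0.07 in KO (exact permutation p = 0.9), and by 0.14 and 0.06 without those libraries.

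*Rheb* (ENSMUSG00000028945, chr5:24802823-24842624, minus strand) read from 2111 to 2504 normalized counts in WT, 2282 to 2537 in HET and 2218 to 2503 in KO mice. The HET and KO ranges lay within or just above the WT range. Its log2FC was 0.09 ± 0.10 in HET and 0.06 ± 0.10 in KO (exact permutation p = 0.4 and 0.7), and 0.06 and 0.03 without the third mutant libraries. *Rheb* had the smallest unadjusted p of the members in HET, 0.379 in limma. The third TSC subunit *Tbc1d7* differed by 0.05 ± 0.18 in HET and -0.10 ± 0.18 in KO, and *Rhebl1* by 0.14 ± 0.16 and 0.07 ± 0.16. Leaving out the third mutant libraries gave -0.11 and -0.23 for *Tbc1d7*, and 0.12 and 0.0014 for *Rhebl1*.

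*Akt1* (ENSMUSG00000001729, chr12:112653821-112674884, minus strand) read 4790, 5501 and 4879 normalized counts in WT, 4551, 4781 and 5243 in HET, and 4775, 4908 and 5120 in KO mice. The KO mice lay closest together and the groups overlapped. The log2FC was -0.06 ± 0.09 in HET and -0.03 ± 0.09 in KO (exact permutation p = 0.5 and 0.8), and -0.11 and -0.06 without the third mutant libraries. *Akt2* differed by -0.15 ± 0.12 in KO and -0.0085 ± 0.12 in HET, with overlapping groups, and by -0.07 and 0.05 without those libraries.

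*Rps6kb1* (ENSMUSG00000020516, chr11:86498871-86544805, minus strand) read 1515, 1403 and 1424 normalized counts in WT, 1332, 1365 and 1495 in HET, and 1432, 1316 and 1543 in KO mice. The groups overlapped, and KO replicate 3 was the highest library. Its log2FC was -0.05 ± 0.09 in HET and -0.02 ± 0.09 in KO (exact permutation p = 0.4 and 1), and -0.10 and -0.08 without the third mutant libraries. *Rps6kb2* differed by 0.04 ± 0.09 and 0.07 ± 0.09, and *Rps6* by 0.12 ± 0.08 and 0.06 ± 0.08. Leaving out those libraries gave 0.06 and 0.10 for *Rps6kb2*, and 0.11 and 0.06 for *Rps6*.

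*Eif4ebp1* (ENSMUSG00000031490, chr8:27260329-27276674, plus strand) was the member with the lowest counts, 65.2, 89.4 and 123 in WT, 70.2, 83.3 and 76.6 in HET, and 84.7, 80.8 and 113 in KO mice. The WT mice alone spanned the values of all other libraries. Its log2FC was -0.22 ± 0.24 in HET and 0.04 ± 0.24 in KO (exact permutation p = 0.6 and 1), and without WT replicate 3 it was 0.0035 and 0.26. Leaving out the third mutant libraries gave -0.22 in HET and -0.11 in KO. For KO against HET it was 0.26 ± 0.24 (exact permutation p = 0.2), and 0.11 without those libraries. *Eif4ebp3*, another low gene, read 87.6, 65.5 and 65.8 in WT and 53.9, 57.9 and 63.2 in HET, each HET mouse below each WT mouse, with a log2FC of -0.31 ± 0.22 (unadjusted p = 0.195, adjusted p = 0.999 in limma), and -0.37 without the third mutant libraries. *Eif4ebp2* differed by -0.07 ± 0.12 in HET and 0.09 ± 0.12 in KO, and by -0.12 and 0.04 without them.

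**Figure D3:**
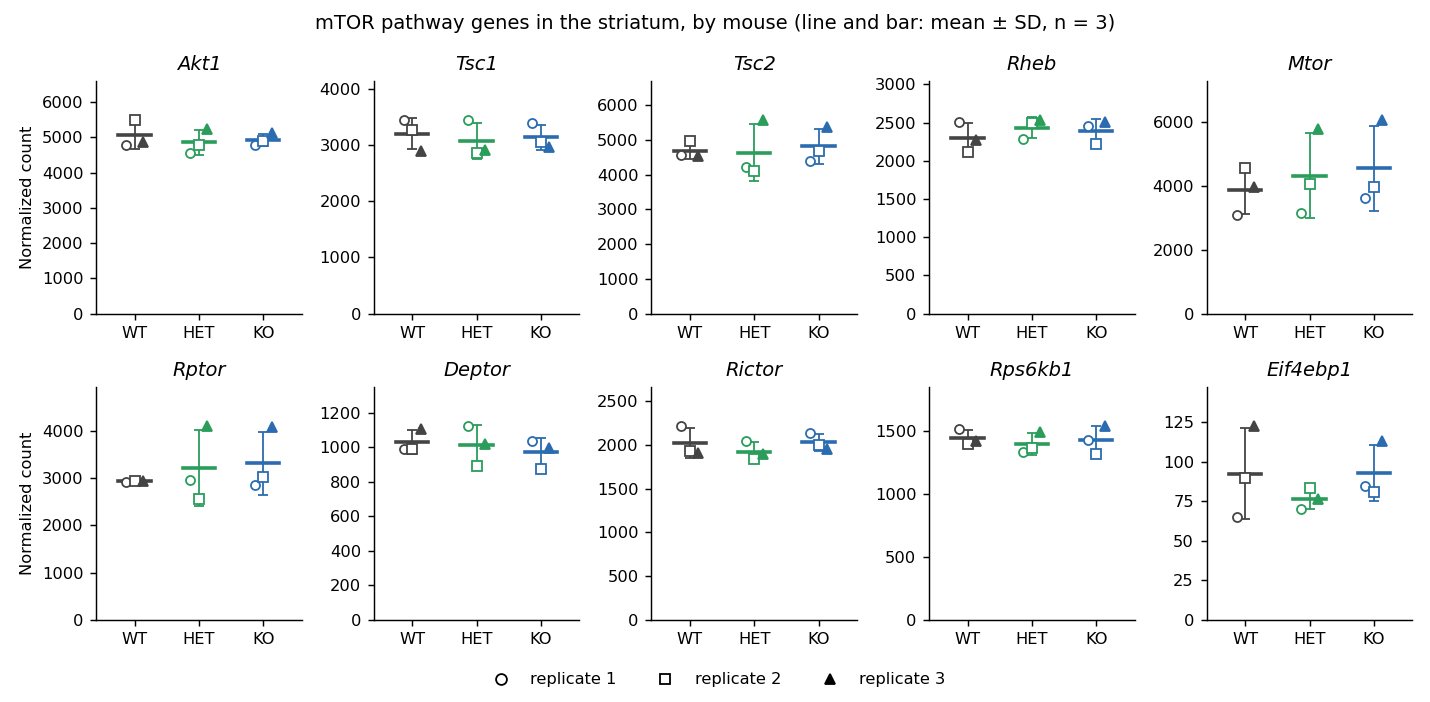
Normalized count of the 10 genes in each mouse by genotype, with the mean (line) and SD (bar) of 3 mice and a symbol for each replicate number. In *Mtor*, *Rptor* and *Tsc2*, the filled triangles of HET and KO replicate 3 stand above all other points, while in *Rictor* and *Tsc1* they do not.

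The members differed in how far mice of the same genotype lay apart. The residual SD within genotypes was 0.38 (log2) for *Mtor*, at the 85th percentile of the genes tested, 0.31 for *Eif4ebp1* and 0.26 for *Rptor*. It was 0.09 for *Rps6kb1*, *Rictor* and *Akt1*, between percentiles 10.9 and 11.3, and the median of all genes was 0.19. Without HET replicate 3 and KO replicate 3, the SD was 0.24 for *Mtor*, 0.08 for *Rptor* and 0.06 for *Tsc2*, against 0.17 for *Tsc2* with them. *Eif4ebp1* had an SD of 0.33 without them.

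In *Mtor*, *Rptor* and *Tsc2*, HET replicate 3 and KO replicate 3 were both above the other 7 libraries, which makes 3 of 10 members beside 19.2% of all genes tested, and 32 of 109 genes in a wider list of mTOR signalling. They reached 1.27 and 1.33 times the highest of the other 7 in *Mtor*, 1.36 and 1.35 times in *Rptor*, and 1.12 and 1.08 times in *Tsc2*. Both libraries were below the other 7 in 0 of 10 members and 9 of 109 genes of the wider list, beside 16.4% of all genes. The loading on the first principal component stood at the 97.7th percentile for *Mtor*, the 92.1st for *Rptor* and the 82.4th for *Tsc2*, against the 38.3rd for *Rictor*. The GC content of the longest transcript was 54.2%, 56.5% and 54.7% in the former and 42.5% in *Rictor*, with a median of 50.1% over all genes and 59.7% in *Akt1*, which was not highest there. The parts of GC content and of the mitochondrial share in this pattern were not tested.

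Without these 2 libraries, 3 of 10 members (*Akt1*, *Rps6kb1* and *Tsc2*) had both HET mice below all WT mice, beside 13.6% of all genes whose groups then did not overlap in either direction, and 1 (*Tsc2*) had both KO mice above both HET mice, beside 26%. None of these had an unadjusted p under 0.05 in limma, and for KO against WT the count was 0 of 10, beside 13.4%.

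**Figure D4:**
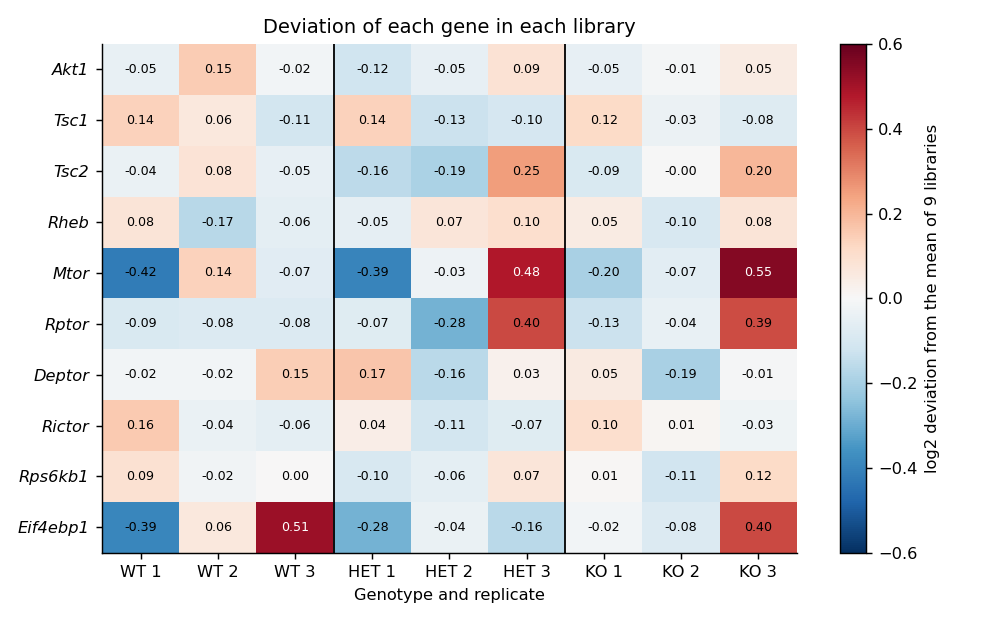
Deviation of each gene in each library from its mean over the 9 libraries, on the log2 scale, with red above and blue below the mean. The strongest red cells of *Mtor*, *Rptor* and *Tsc2* are in HET 3 and KO 3, while *Eif4ebp1* is highest in WT 3.

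Likeness between profiles was measured as the root mean square difference of centred log2 values over the 9 libraries. Among the members, *Rictor* and *Tsc1* were closest (0.06), followed by *Rheb* and *Rps6kb1* (0.07), and *Mtor* and *Tsc1* were farthest apart (0.40). *Rptor* was closer to *Tsc2* (0.11) than to *Mtor* (0.20). Over the 7 libraries other than HET replicate 3 and KO replicate 3, these differences were 0.06, 0.08, 0.27, 0.07 and 0.21 in the same order. Over all genes tested, the 3 most like *Mtor* were *Map1s* (0.06), *Eif3f* (0.07) and *Capns1* (0.07), with 0.05, 0.04 and 0.07 over the 7 libraries. In *Map1s*, as in *Mtor*, the 2 highest libraries were HET replicate 3 and KO replicate 3, at 3302 and 3025 normalized counts, and the lowest were HET replicate 1 and WT replicate 1, at 1674 and 1690.

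The wider list held 109 genes of mTOR signalling, the 10 members among them, and all 109 were tested. In limma with Benjamini-Hochberg adjustment, 0 passed an adjusted p of 0.05 in any comparison. At an unadjusted p under 0.05 there was 1 gene for HET against WT, 0 for KO against WT and 1 for KO against HET. The shares over all genes were 1.11%, 0.822% and 1.31%. The log2FC was positive in 65, 71 and 56 of the 109 genes, beside 49.3%, 51.6% and 49.6% of all genes, with medians of 0.02, 0.02 and 0.0096. Leaving out HET replicate 3 and KO replicate 3 gave 41, 49 and 61 positive, beside 48.4%, 47.1% and 50.1% of all genes, and medians of -0.03, -0.0092 and 0.02. Groups did not overlap in 4 of the 109 genes for HET against WT (among them *Ndrg1* and *Lamtor3*, higher in HET, and *Eif4ebp3*, lower), 2 for KO against WT (*Rps6ka1* and *Pik3cd*, higher in KO) and 3 for KO against HET (*Irs2*, *Pik3cd* and *Phlpp2*, higher in KO). Over all genes tested, the shares whose groups did not overlap were 4.45%, 4.54% and 4.45%. *Lamtor3* and *Phlpp2* are named because their groups did not overlap. Without the third mutant libraries the counts were 16, 10 and 20 of 109, beside 13.6%, 13.4% and 26% of all genes.

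By role, the 26 genes of amino acid input, which regulate the recruitment of mTORC1 to the lysosome, had 19 positive log2FC for HET against WT (median 0.05) and 17 for KO against WT (median 0.03), where 49.3% and 51.6% of all genes were positive. Without HET replicate 3 and KO replicate 3, 10 were positive in each comparison (medians -0.01 and -0.02), beside 48.4% and 47.1%. The 19 genes of PI3K and Akt input had 11 and 9 positive, and 8 and 9 without those libraries. Among 14 genes of energy and stress input, 8 were positive in each mutant, and 7 and 6 without them. The 17 genes of translation output had 6 positive in HET (median -0.03) and 12 in KO (median 0.04), and 5 and 9 without them (medians -0.04 and 0.0047). Of the 11 genes of autophagy, lysosome and lipid output, 7 and 8 were positive, and 4 in each mutant without them. Among 5 genes of mTORC2 output 3 were positive in each mutant, with and without them, and among 3 genes of the phosphatase link 2 and 3, and 1 in each without them. The 5 mTORC1 subunits had 3 and 4 positive, and 0 in each mutant without those libraries. Of the 7 mTORC2 subunits, 5 and 6 were positive, and 1 and 4 without them. *Mtor*, *Mlst8* and *Deptor* count in both complexes. The 5 genes of the TSC complex and Rheb had 3 positive in each mutant, and 2 and 3 without them. None of these roles held a gene past the adjusted threshold.

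The gene with an unadjusted p under 0.05 for HET against WT was *Ndrg1*, a target of the mTORC2-dependent kinase SGK1. It read 3194, 2881 and 3523 normalized counts in WT, 3800, 4220 and 4917 in HET, and 4128, 4190 and 3204 in KO mice. Each HET mouse was above each WT mouse, while KO replicate 3 lay within the WT range. The log2FC of *Ndrg1* was 0.43 ± 0.14 in HET (unadjusted p = 0.0106, adjusted p = 0.999 in limma) and 0.26 ± 0.14 in KO, and 0.33 and 0.38 without HET replicate 3 and KO replicate 3. *Ndrg1* is also expressed by oligodendrocytes. The summed counts of 9 oligodendrocyte markers ranged from 161294 to 263975 in WT, 226183 to 256250 in HET and 139534 to 247701 in KO mice, with KO replicate 3 at the lowest value of all 9 libraries, and none of the 9 was at 0. Their part in the *Ndrg1* values was not tested.

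*Irs2*, an adaptor of insulin and IGF receptors, was the gene with an unadjusted p under 0.05 for KO against HET. It read 1064, 751 and 930 normalized counts in WT, 751, 651 and 816 in HET, and 998, 900 and 886 in KO mice. Each KO mouse was above each HET mouse, and the WT mice overlapped both. The log2FC of *Irs2* was 0.33 ± 0.14 for KO against HET (unadjusted p = 0.0389, adjusted p = 0.9999 in limma) and -0.30 ± 0.14 for HET against WT, and without HET replicate 3 and KO replicate 3 it was 0.44 and -0.37.

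With the members, partners and paralogs set aside, the next genes of the wider list by unadjusted p did not pass 0.05. For HET against WT they were *Irs2*, *Stk11* (log2FC 0.20 ± 0.12), which encodes the AMPK-activating kinase LKB1, *Lamtor4* (0.34 ± 0.21), a Ragulator subunit, and *Sesn1* (0.16 ± 0.11), a stress-induced inhibitor of mTORC1. For *Lamtor4*, HET replicate 3 read 1485 normalized counts against 710 to 1163 in the other 8 libraries, and the log2FC without HET replicate 3 and KO replicate 3 was 0.11. It was 0.07 for *Stk11* and 0.09 for *Sesn1* without them. For KO against WT they were *Rps6ka1* (0.21 ± 0.10), an RSK kinase gene in which the 3 KO mice read 484 to 538 and the WT mice 419 to 448, *Irs1* (0.27 ± 0.14), *Ndrg1*, *Pik3cd* (0.14 ± 0.08), a PI3K catalytic subunit with KO values of 986 to 1005 above WT values of 886 to 935, and *Prkcb* (-0.22 ± 0.14), a protein kinase C gene. Leaving out those libraries gave 0.24 for *Rps6ka1*, 0.17 for *Irs1*, 0.14 for *Pik3cd* and -0.15 for *Prkcb*. For KO against HET they were *Prkca* (0.21 ± 0.11), *Sgk3* (-0.25 ± 0.18), *Pdcd4* (0.14 ± 0.11) and *Ntrk2* (0.13 ± 0.10), which encodes the BDNF receptor. The fold of *Sgk3* rested on KO replicate 3, and its log2FC was -0.05 without HET replicate 3 and KO replicate 3, while those of *Prkca*, *Pdcd4* and *Ntrk2* were 0.14, 0.07 and 0.13.

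**Figure D5:**
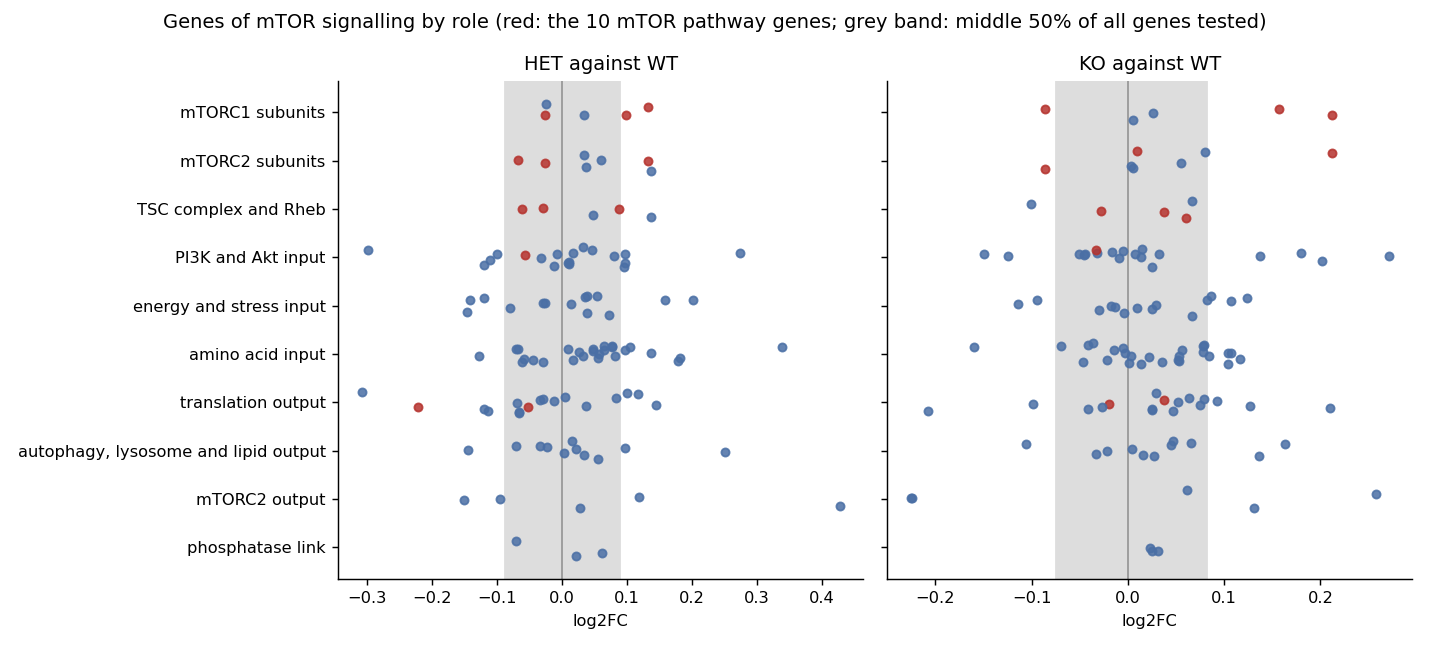
Log2FC of 109 genes of mTOR signalling by role for HET against WT and KO against WT, with the 10 mTOR pathway genes in red, other genes in blue and the middle 50% of all genes tested as a grey band. Subunits shared by both complexes appear in both rows. *Ndrg1* lies highest in the HET panel at 0.43.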

How the data were processed

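Striatal RNA of 9 mice was sequenced from stranded mRNA libraries, and groups and replicate numbers were taken from the sample labels. The authors estimated transcript abundance with Salmon 0.9.1 on GRCm38 with GC bias correction, used tximport to obtain gene-level values, and scaled these by the size factors of DESeq2 1.19.11 (R 3.6.0). The deposited signal is these normalized counts. The annotation release is not given in the sources used here. Whole reads could not be recovered, so that depth is unknown and no count test was run.

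The tests used log2(normalized count + 1), a scale that understates changes of low genes. Of 15464 genes, the 14239 with 10 or more in no fewer than 3 libraries entered limma 3.58.1 (R 4.3.3, trended prior, all 9 libraries, no covariate), with Benjamini-Hochberg adjustment. Single values were compared with exact two-sided permutation tests. The limma p-values and intervals rest on 1 spread per gene within genotypes over all 9 mice, moderated by the prior over all genes. The permutation tests use only the 3 mice of each genotype compared. The fit was also run on simulated data with independent noise in each library. That noise lacked the shared shift of HET replicate 3 and KO replicate 3, so the run cannot show how the fit handles it.

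Symbols, coordinates and exon lengths come from GENCODE M21 (GRCm38), with symbols for 15457 genes. 0 sample columns were left unused. The members and lists were chosen with earlier results of these data known. Genes named were the members, *Shank3*, fixed partners and paralogs, up to 5 others of the wider list per comparison by unadjusted p, and the 3 most like *Mtor*. *Lamtor3* and *Phlpp2* were named after their values were seen. 1 gene of the wider list is not reported here by name.

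Same-numbered libraries were checked for pairing by correlating deviations from the genotype means. The correlations were 0.52, 0.28 and 0.51 between HET and KO. WT and KO gave 0.24, -0.22 and 0.024, and WT and HET gave 0.32, -0.014 and 0.0054. Libraries with different numbers were not correlated, and the HET and KO values include the shared shift of HET replicate 3 and KO replicate 3. The correlations therefore cannot show whether the numbers pair the mice. What the numbers stand for is not given in the sources used here. Alternatives were other filters, pseudocounts, normalization and variance priors, a replicate block, fits of 2 genotypes, other lengths and leaving out libraries. The values of roles, partners and likeness without HET replicate 3 and KO replicate 3 were added after seeing the data.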

Additional observations from a re-analysis of the deposited data

How the results depend on the processing

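The count of 0 genes past the adjusted threshold held in all 108 counts with 1 library left out and all 105 under the other alternatives, over all genes, the members and the wider list. Of 270 log2FC of the members under alternatives other than leaving out 1 library, 263 kept their direction. Another filter or variance prior, the replicate block and fits of only the genotypes compared could not change a log2FC. The signs under these alternatives were fixed in advance, and the 263 include them. The 7 that turned did so without HET replicate 3 and KO replicate 3: for HET against WT *Mtor* (-0.0984) and *Rptor* (-0.0938), and for KO against WT *Mtor* (-0.0156), *Rptor* (-0.00225), *Tsc1* (0.0106), *Tsc2* (-0.0447) and *Eif4ebp1* (-0.111). So did the log2 ratios of *Rptor* to *Rictor* (-0.0382 in HET and -0.0399 in KO), *Tsc1* to *Tsc2* (0.144 and 0.0554) and *Mtor* to *Deptor* (-0.0628 in HET), which were an alternative chosen after seeing the data, and the wider list's median for HET against WT moved to -0.027. Of the partners, *Tbc1d7* (-0.109), *Akt2* (0.046), *Mlst8* (-0.0043) and *Prr5* (-0.00048) turned for HET against WT. For KO against WT, *Mlst8* (-0.033) and *Akt1s1* (-0.104) turned, and for KO against HET *Akt1s1* (-0.0069) and *Prr5* (0.097). These values without the 2 libraries were likewise added after seeing the data. Genes at an unadjusted p under 0.05 then numbered 271 (HET against WT), 217 (KO against WT) and 276 (slope) in place of 158, 117 and 138. For KO against WT this count was 76 with a filter of 50 and 176 without trend.

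With the replicate number as a block, 365, 310 and 318 genes had an unadjusted p under 0.05 for HET against WT, KO against WT and KO against HET and 341 for the slope, 0 passed the adjusted threshold, and no call of a member changed. Over the longest transcript, WT levels per kb were 445 (*Rptor*), 217 (*Rictor*), 416 (*Tsc1*), 749 (*Tsc2*), 567 (*Rheb*), 1880 (*Akt1*) and 262 (*Rps6kb1*).

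Leaving out 1 library at a time gave 270 log2FC of the members. Where that library was of the genotype not compared, the log2FC could not change. The sign turned in 41 of the 270 log2FC, none past a threshold. Their ranges were, for HET against WT, *Mtor* -0.0984 to 0.339, *Rptor* -0.0938 to 0.247, *Rictor* -0.11 to 0.00204, *Tsc2* -0.171 to 0.049, *Akt1* -0.114 to 0.00456, *Deptor* -0.105 to 0.0593, *Eif4ebp1* -0.447 to 0.00354, *Shank3* -0.0755 to 0.197, for KO against WT, *Mtor* -0.0156 to 0.359, *Rptor* -0.00225 to 0.258, *Rictor* -0.0293 to 0.0785, *Tsc1* -0.0995 to 0.0266, *Tsc2* -0.0447 to 0.101, *Akt1* -0.0709 to 0.0289, *Eif4ebp1* -0.188 to 0.263, *Rps6kb1* -0.0755 to 0.0391, and for KO against HET, *Mtor* -0.148 to 0.31, *Rptor* -0.101 to 0.251, *Tsc1* -0.0227 to 0.118, *Tsc2* -0.0149 to 0.208, *Rheb* -0.0741 to 0.0253, *Akt1* -0.0216 to 0.0805, *Deptor* -0.145 to 0.019, *Rps6kb1* -0.0237 to 0.0909. The ratios ranged for *Rptor* to *Rictor* -0.0382 to 0.282 (HET against WT), -0.0399 to 0.285 (KO against WT), -0.205 to 0.186 (KO against HET), for *Tsc1* to *Tsc2* -0.179 to 0.144 (HET against WT), -0.186 to 0.0554 (KO against WT), -0.209 to 0.114 (KO against HET) and for *Mtor* to *Deptor* -0.0628 to 0.444 (HET against WT), -0.146 to 0.361 (KO against HET). The wider list's median ranged from -0.027 to 0.0553 (HET against WT), -0.00919 to 0.0296 (KO against WT) and -0.0274 to 0.0436 (KO against HET). Genes at an unadjusted p under 0.05 ranged from 116 to 393, 70 to 289, 141 to 298 and, for the slope, 81 to 344. The causes were not tested. With 3 mice per genotype, the 95% interval of *Mtor* in KO against WT ran from -0.34 to 0.77 (log2), and depth in reads is unknown.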
